A study of Homo sapiens with 4 samples.

Results

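A set of 9 long noncoding RNA (lncRNA) genes was followed in T24 cells, a human bladder carcinoma line: MALAT1 and NEAT1, which make nuclear RNAs, and the snoRNA host genes GAS5, SNHG1, SNHG5, SNHG6, SNHG7, SNHG8 and SNHG16. They were chosen by symbol, with no measured value in the rule but with earlier results of these data known, and are 9 of the 58302 genes with a value. The RNA-seq libraries were 2 from cells with the genotype IGF2BP3 knockout and 2 from cells with the genotype control. The knockout was made with CRISPR/Cas9 as a stable line. IGF2BP3 is an RNA-binding protein that reads the m6A mark, and the study asked what its loss does to gene expression. All libraries were made from polyA RNA. Whether libraries with the same genotype came from separate cultures or clones is not stated, so p-values measure only the spread between these libraries, which may be technical.

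MALAT1 RNA gathers in nuclear speckles, domains rich in splicing factors. The long NEAT1 transcript is the scaffold of paraspeckles, nuclear bodies built by proteins such as NONO and SFPQ. Host genes carry small nucleolar RNAs (snoRNAs) in their introns, which guide modification of ribosomal and other RNAs, while the spliced host RNA often reaches the cytoplasm and is destroyed there by nonsense-mediated decay. Many host genes start transcription at a C followed by further pyrimidines, the feature known from mRNAs of ribosomal proteins as a TOP tract.

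The windows around the annotated starts are shown because that start feature is what the host genes are known to have in common. They come from RefSeq (GRCh38.p14), and 8 windows for 7 of the genes were examined, with a pair of starts for MALAT1. NEAT1 and SNHG6 are named only, and no window of theirs was examined or counted. Each window has 75 bases, 5′ to 3′ on the gene's strand, and base 46 is the annotated start. Capitals mark TATAA lying from 40 to 16 bases before the start, and the first run of at least 5 bases that begins with C and goes on in C or T within 20 bases of the start.
MALAT1, first start, chr11:65497693-65497767, plus strand: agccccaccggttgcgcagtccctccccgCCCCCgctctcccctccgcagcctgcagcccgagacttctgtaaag
MALAT1, second start, chr11:65499000-65499074, plus strand: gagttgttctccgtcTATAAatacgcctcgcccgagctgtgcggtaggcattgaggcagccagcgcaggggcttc
GAS5, chr1:173869016-173869090, minus strand: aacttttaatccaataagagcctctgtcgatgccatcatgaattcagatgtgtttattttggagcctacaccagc
SNHG1, chr11:62855856-62855930, minus strand: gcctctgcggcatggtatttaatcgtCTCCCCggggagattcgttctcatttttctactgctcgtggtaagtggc
SNHG5, chr6:85678704-85678778, minus strand: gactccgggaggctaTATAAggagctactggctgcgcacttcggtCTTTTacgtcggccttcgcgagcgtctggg
SNHG7, chr9:136728155-136728229, minus strand: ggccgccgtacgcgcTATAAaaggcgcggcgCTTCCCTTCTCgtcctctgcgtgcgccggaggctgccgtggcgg
SNHG8, chr4:118278717-118278791, plus strand: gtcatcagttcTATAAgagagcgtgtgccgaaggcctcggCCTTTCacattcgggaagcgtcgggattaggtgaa
SNHG16, chr17:76557719-76557793, plus strand: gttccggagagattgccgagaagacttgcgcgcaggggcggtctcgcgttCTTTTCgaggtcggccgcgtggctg

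The pyrimidine run was found in 6 of these 8 windows, and in 47.9% of all 35116 RefSeq windows searched in the same way. On the other strand it was found in 4 of the 8 and in 46.3% of all. The run began exactly at the annotated start in SNHG5 only, which is where a TOP tract would begin. It began at -16 in the first MALAT1 window, -19 in SNHG1, -14 in SNHG7 and -5 in SNHG8. In SNHG16 it began 5 bases after the start. TATAA was found in 4 of the 8 windows, at -30 in the second MALAT1 window, SNHG5 and SNHG7 and at -34 in SNHG8, against 3.91% of all windows. On the other strand TATAA was in 0 of the 8 and in 1.73% of all. The GAS5 window lies wholly before the GENCODE 29 gene used for its values, which on the minus strand starts at position 173868882. The lack of a run in that window therefore does not describe the start of that gene. These are matches of letters in annotated windows, and where transcription started in these cells was not measured.

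The deposited values are FPKM, read fragments scaled to transcript length and to the reads of the library. They rested on few reads: 811823 and 1240207 in the knockout libraries, against 2162179 and 1870884 in the controls. Genes above 0 numbered 7827 and 11127 in the knockouts and 8856 and 11433 in the controls. IGF2BP3 had 0 and 0.190 FPKM (0 reads and 1 read) in the knockouts and 2.94 and 21.5 FPKM (27 and 171 reads) in the controls, which follows the labels although the controls were far apart. Zeros also occurred among housekeeping genes: HPRT1 had 0 and 56.7 FPKM in the knockouts and 0.329 and 20.1 FPKM in the controls. Keratin genes KRT8 (1138 and 816 FPKM in knockouts, 266 and 397 in controls) and KRT18 (303 and 314 in knockouts, 173 in each control) were present, but 9 of 16 urothelial and epithelial markers, the uroplakins UPK1A, UPK1B, UPK2 and UPK3A, CDH1 and EPCAM among them, were at 0 in all 4 libraries. The 5 immune and 3 red cell markers were at 0 throughout. Of 4 endothelial markers 2 were above 0 in some library, CLDN5 at 4.43 FPKM in knockout 2 and CDH5 at 2.72 FPKM in control 2. So were 2 of 5 fibroblast markers. COL1A1 had 6.59 FPKM in knockout 2 and 14.9 FPKM in control 1, and COL1A2 had 0.135 FPKM in knockout 2. The summed FPKM of the urothelial and epithelial list was 1545 and 1163 in the knockouts and 439.7 and 582 in the controls, and its part in the results on the lncRNA genes was not tested. Differences between genotypes were tested with limma on log2(FPKM + 0.5), over the 11463 genes with a mean of at least 1 FPKM, and fold changes are on that scale, knockout minus control.

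All 9 lncRNA genes passed that filter, and none of them passed the threshold of an adjusted p of 0.05 in limma, where 0.0872% of all tested genes did (0.0611% higher and 0.0262% lower in the knockouts). Their adjusted p-values lay between 0.955 and 0.998. IGF2BP3 itself did not pass either, at -3.89 ± 2.83 (SE, 2 libraries per group) with a limma adjusted p of 0.955. At an unadjusted p under 0.05 the count of the 9 was 1, SNHG6, against 3.91% of all tested genes. Without the trend in limma that count was 0, with 415 of all 11463 tested genes. Limma-voom on reads recovered from the FPKM called 8 of 11043 genes, and of the 9 only MALAT1. The fitted value was negative for 7 of the 9 and for 6 of the 7 host genes, against 51.8% of all tested genes. The median was -0.47 for the 9, -0.95 for the 7 hosts and -0.08 for all tested genes. The knockout and control values did not overlap for GAS5, NEAT1, SNHG7 and SNHG16, all lower in the knockouts (14.4% of tested genes), and for SNHG1, higher in the knockouts (12.1% of tested genes). In bulk RNA, fewer expressing cells and less RNA per cell cannot be told apart.

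**Figure D1:**
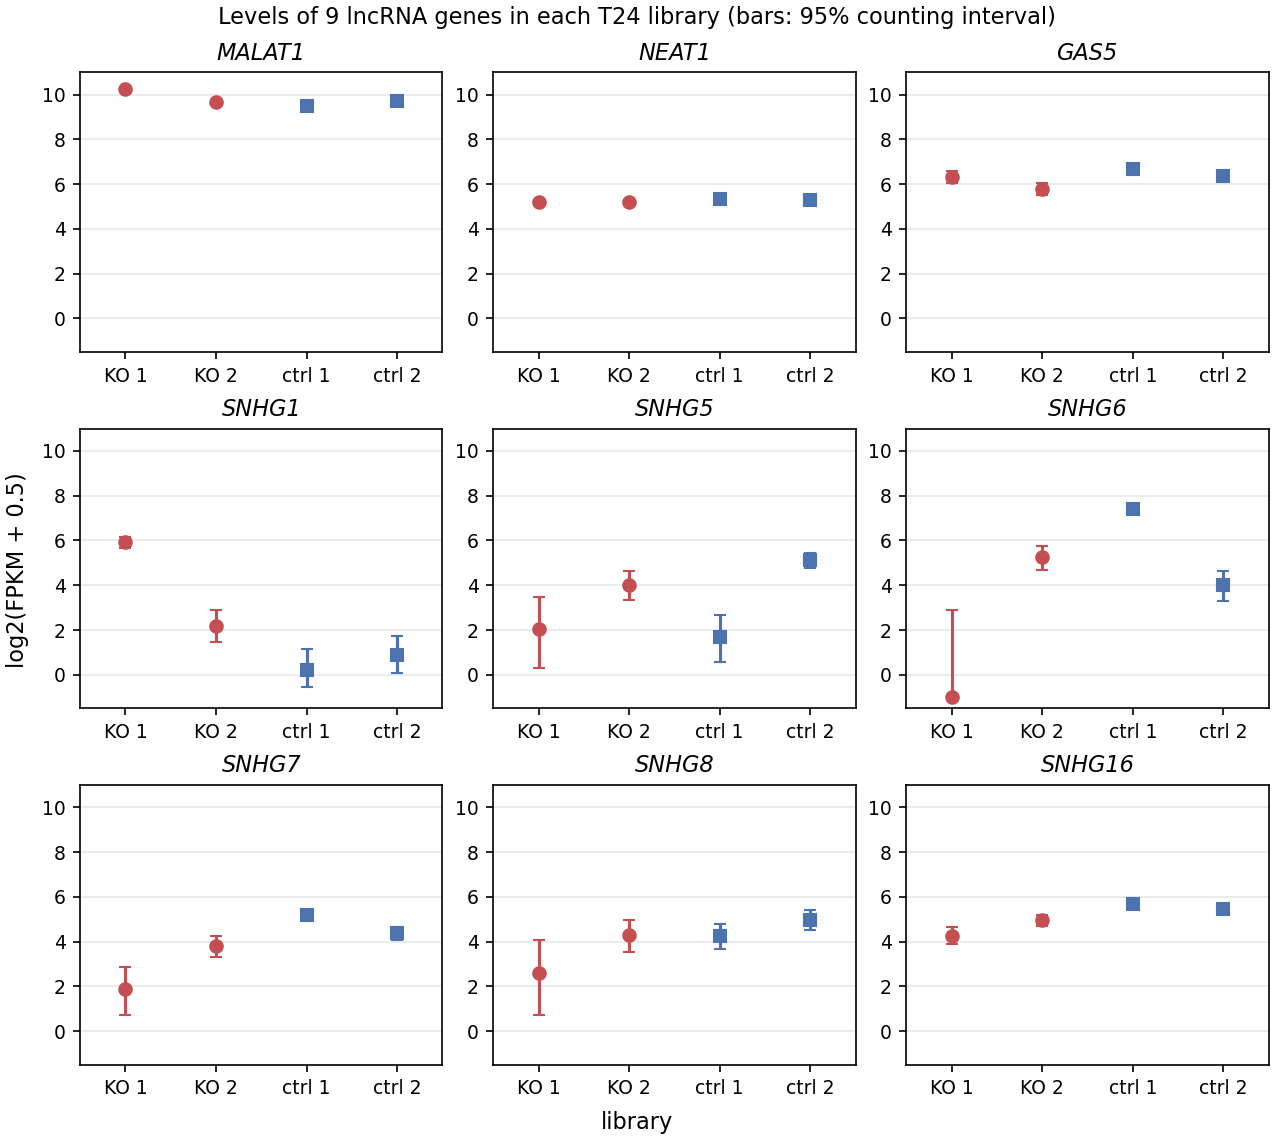
Level of each of the 9 lncRNA genes as log2(FPKM + 0.5), 1 panel per gene, with a point for each knockout (KO) and control (ctrl) library and bars for the 95% counting interval of its reads. NEAT1 was nearly level at 36.2 and 36.4 FPKM in knockouts and 39.5 and 38.1 FPKM in controls, whereas SNHG6 ran between 0 FPKM in knockout 1 and 169.9 FPKM in control 1.

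MALAT1 (ENSG00000251562; hg38 chromosome 11, 65497688 to 65506516, plus strand, longest transcript 8708 nt in a single exon) had the highest level of the 9 in every library. It had 1219 and 823 FPKM in the knockouts and 722 and 829 FPKM in the controls, from 8615 and 8884 reads in the knockouts and 13593 and 13511 in the controls. Knockout 1 was above the other 3 libraries, knockout 2 lay between the controls, and the groups overlapped. The fitted log2 fold change was 0.37 ± 0.36 (SE, 2 libraries per group; limma adjusted p = 0.955), with a 95% interval of -0.33 to 1.07. Without knockout 1 it was 0.09.

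The MALAT1 spread was wide next to its counting error. The 95% counting interval was 1193 to 1245 FPKM in knockout 1 and 806 to 839.9 FPKM in knockout 2, against 709.9 to 734 FPKM in control 1 and 815 to 843 FPKM in control 2. Knockout 2 and control 2 were thus not separable by counting, while the other libraries were. Limma-voom, which works on recovered reads and gives well-covered genes more weight, put the MALAT1 difference at 0.22 ± 0.02 (SE, 2 libraries per group; limma-voom adjusted p = 2.27e-24), although the knockout and control values overlapped. In the other alternatives tried its limma adjusted p lay between 0.669 and 0.998. MALAT1 took 1.06% and 0.716% of the reads in the knockouts, and 0.629% and 0.722% in the controls. It ranked 18 and 28 among all genes by FPKM in the knockouts and 38 and 31 in the controls. These shares and ranks hold for polyA RNA, and how much MALAT1 RNA that selection left out was not measured.

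NEAT1 (ENSG00000245532; hg38 chromosome 11, 65422774 to 65445540, plus strand) lies 52147 bases before MALAT1 on the same strand. It had 36.2 and 36.4 FPKM in the knockouts and 39.5 and 38.1 FPKM in the controls, from 669 and 1027 reads in the knockouts and 1944 and 1622 in the controls. Both knockouts were below both controls, by a small margin. The NEAT1 difference was fitted at -0.09 ± 1.06 (SE, 2 libraries per group; limma adjusted p = 0.998), and the reads pooled by genotype, per depth, gave 93.5% of the control level in the knockouts (95% interval 88.2 to 99.1%, counting error only).

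The whole range of NEAT1 over the 4 libraries was 0.12 on the log2 scale, and only 5 of the 11463 tested genes had a smaller one. The median range of tested genes was 3.97. Among the 163 tested genes with a mean of at least 1000 reads the median range was 0.83, and NEAT1 had the smallest but 2. The SE of 1.06 did not follow this, because the fit took the spread from genes of like level and gave a gene's own replicates no weight. FPKM divided the reads by the longest transcript, 22743 nt for NEAT1, and the other annotated NEAT1 transcripts have 512 to 3524 nt, so the short and long forms, of which only the long one scaffolds paraspeckles, cannot be told apart here. How much of each form the polyA selection left out was not measured.

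**Figure D2:**
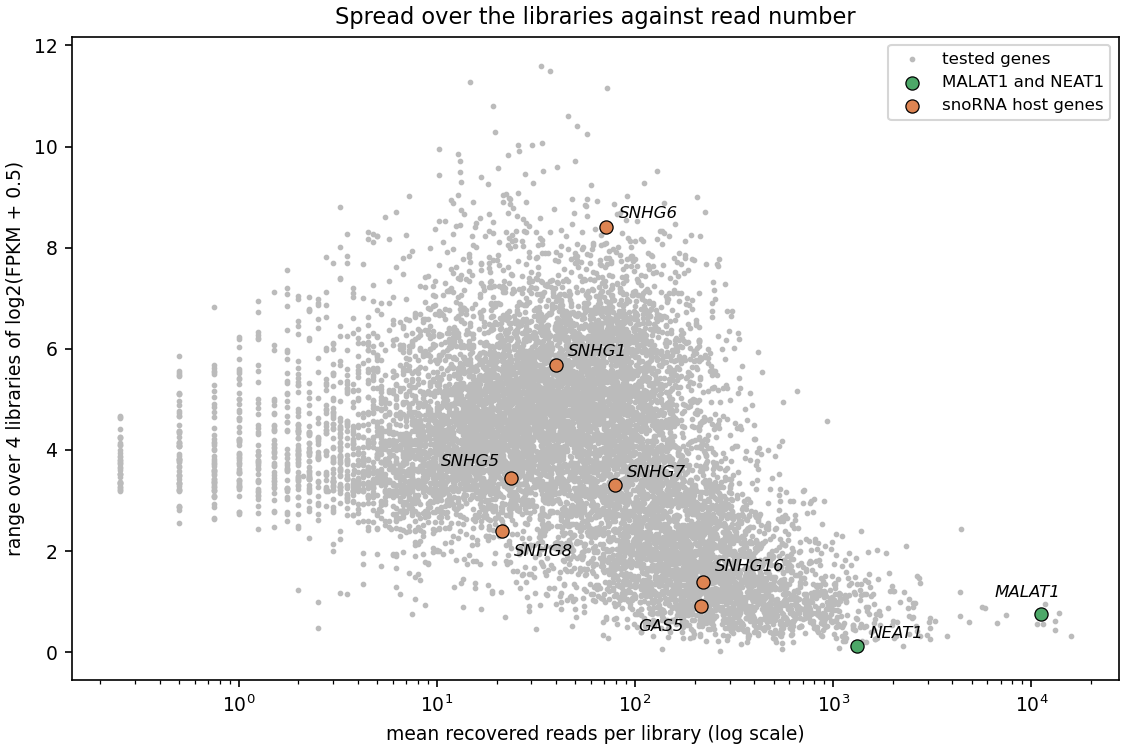
Range of log2(FPKM + 0.5) over the 4 libraries (vertical axis) against the mean recovered reads per library (horizontal log axis), for all tested genes (grey) and the 9 lncRNA genes (coloured). NEAT1 lies at the lower edge with a range of 0.12, MALAT1 has 0.75, and the host genes run between 0.92 for GAS5 and 8.41 for SNHG6.

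By FPKM, MALAT1 exceeded NEAT1 33.6 and 22.6 times in the knockouts and 18.3 and 21.8 times in the controls. By reads, which favour the longer gene, the ratio was 12.9 and 8.65 in the knockouts and 6.99 and 8.33 in the controls. Such ratios hold for the polyA RNA of these libraries only. By the likeness rule, over 4 libraries and 5866 candidate genes, the pattern nearest to that of MALAT1 was shown by CAST, HSPA5 and SRSF9, with a root mean square difference of log2 values of 0.030, 0.039 and 0.041. For NEAT1 it was GNB1, PXDN and USB1, with 0.041, 0.046 and 0.059. With 4 libraries such likeness is common: 168 candidates lay within 0.25 of MALAT1 and 236 within 0.25 of NEAT1.

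Among the host genes, GAS5 and SNHG16 had the steadiest values. GAS5 (ENSG00000234741; hg38 chromosome 1, 173863900 to 173868882, minus strand), a growth arrest gene whose spliced RNA is a known substrate of nonsense-mediated decay, had 80.5 and 54.1 FPKM in the knockouts and 103 and 81.8 FPKM in the controls. Both knockouts were below both controls, though knockout 1 was only just below control 2. The fitted value was -0.47 ± 0.81 (SE, 2 libraries per group; limma adjusted p = 0.968), and the pooled reads gave 69.4% of the control level (59.4 to 80.9%, counting error only). Without knockout 2 the fitted value was -0.19.

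SNHG16 (ENSG00000163597; hg38 chromosome 17, 76557766 to 76565348, plus strand) had 18.8 and 30.6 FPKM in the knockouts and 50.3 and 43.6 FPKM in the controls. Both knockouts were below both controls, with a gap wider than the distance between the controls but, on the log2 scale, narrower than the distance of 0.69 between the knockouts. Limma gave a difference of -0.95 ± 1.11 (SE, 2 libraries per group; limma adjusted p = 0.955), or -0.60 without knockout 1, and the pooled reads gave 55.0% of the control level (46.6 to 64.6%). By FPKM, which rests on the longest transcript of each gene, NEAT1 was above SNHG16 in both knockouts, 1.93 and 1.19 times. It was below SNHG16 in both controls, at 0.787 and 0.875 of its level. By reads NEAT1 was above SNHG16 in every library.

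SNHG7 (ENSG00000233016; hg38 chromosome 9, 136721366 to 136728184, minus strand), host of the pseudouridylation guide SNORA17A, had 3.14 and 13.3 FPKM in the knockouts and 35.5 and 20.2 FPKM in the controls. Both knockouts were below both controls, but knockout 1 rested on 6 reads. Its fitted value was -1.94 ± 1.60 (SE, 2 libraries per group; limma adjusted p = 0.955) and was -0.98 without knockout 1.

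SNHG1 (ENSG00000255717; hg38 chromosome 11, 62851988 to 62855914, minus strand), which carries a cluster of box C/D snoRNAs, guides of 2′-O-methylation, was the host gene with a higher value in the knockouts. It had 59.6 and 4.08 FPKM in the knockouts and 0.668 and 1.35 FPKM in the controls, from 134 and 14 reads in the knockouts and 4 and 7 in the controls. Both knockouts were above both controls, yet the knockouts differed from each other far more than the lower of them did from the controls. The difference was fitted at 3.50 ± 2.46 (SE, 2 libraries per group; limma adjusted p = 0.955), and it was 1.64 without knockout 1 and 5.35 without knockout 2.

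SNHG6 (ENSG00000245910; hg38 chromosome 8, 66921684 to 66926398, minus strand), host of the box C/D snoRNA SNORD87, was listed at 0 FPKM in knockout 1 and at 37.3 FPKM in knockout 2, against 169.9 and 15.7 FPKM in the controls. Knockout 2 lay between the controls, so the groups overlapped, and control 1 stood far above the rest. The fitted value depends on the pseudocount through that 0. In knockout 1 the floor of 3 reads is 5.70 FPKM, and the 95% counting interval of 0 reads ends at 7.01 FPKM. SNHG6 had the lowest unadjusted p of the 9, 0.0199, with a fitted value of -3.59 ± 1.54 (SE, 2 libraries per group; limma adjusted p = 0.955), and that value was -0.47 without knockout 1. The SE, and with it this p, came from genes of like level and not from the replicates of SNHG6. On the log2 scale those lay 6.24 apart in the knockouts and 3.40 apart in the controls. Without the trend in limma the SE was 2.48.

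SNHG5 and SNHG8 rested on the fewest reads, 3 to 66 in a library. SNHG5 (ENSG00000203875; hg38 chromosome 6, 85660950 to 85678748, minus strand), host of SNORD50B, had 3.58 and 15.6 FPKM in the knockouts and 2.69 and 34.2 FPKM in the controls. The second library of each genotype was the higher one and the groups overlapped. Its fitted value was -0.37 ± 1.91 (SE, 2 libraries per group; limma adjusted p = 0.994), and it turned to 0.62 without knockout 1 and to 1.35 without control 2.

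SNHG8 (ENSG00000269893; hg38 chromosome 4, 118278709 to 118279823, plus strand), host of the pseudouridylation guide SNORA24, had 5.50 and 19.2 FPKM in the knockouts and 18.6 and 31.0 FPKM in the controls. Knockout 1 was the lowest library, and knockout 2 was just above control 1. Its fitted value was -1.17 ± 1.49 (SE, 2 libraries per group; limma adjusted p = 0.955) and was -0.32 without knockout 1.

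**Figure D3:**
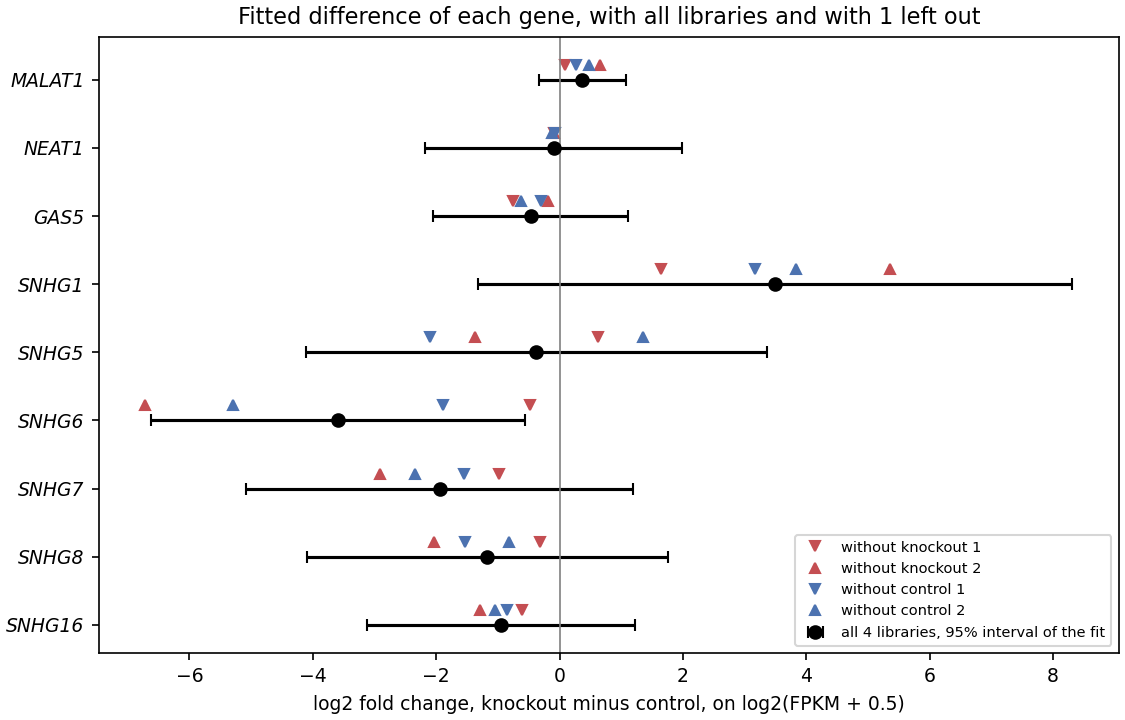
Fitted log2 fold change (knockout minus control, on log2(FPKM + 0.5)) of each of the 9 genes with all 4 libraries (black points with the 95% interval of the fit) and with 1 library left out (coloured marks). The mark for the fit without knockout 1 lies nearer to 0 than the black point for SNHG6 (-0.47 against -3.59), SNHG1 (1.64 against 3.50) and SNHG8 (-0.32 against -1.17), and the marks of SNHG5 stand on both sides of 0.

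Knockout 1, the shallowest library, moved with these values. It was the lowest library for 5 of the 9 genes. The share of all tested genes lowest in a library, alone or tied, was 51.0% in knockout 1 and 23.4% in knockout 2. It was 45.1% in control 1, the deepest library, and 20.3% in control 2. Listed at 0 were 34.7% of tested genes in knockout 1, 13.9% in knockout 2, 28.3% in control 1 and 12.3% in control 2. Without knockout 1 the median over the 7 hosts was -0.47 and that over all tested genes 0.16, with 5 of the 7 hosts lower in the remaining knockout. The host median was -1.37 without knockout 2, -1.54 without control 1 and -0.81 without control 2, where that over all tested genes was -0.56, -0.35 and 0.34. The FPKM of the 7 hosts summed to 171 and 174 in the knockouts and 380.3 and 228 in the controls, and without SNHG6 to 171 and 137 in the knockouts and 210.4 and 212 in the controls. The part of depth in these differences was not tested.

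The order of levels was stable at the top. MALAT1 was 15.1 and 15.2 times the next gene in the knockouts, which was GAS5 in both. In the controls it was 4.25 and 10.1 times the next, which was SNHG6 in control 1 and GAS5 in control 2. By FPKM GAS5 was above NEAT1, and SNHG16 above SNHG7, SNHG8 and SNHG5, in all 4 libraries. By reads NEAT1 was above GAS5, with 669 and 1027 against 111 and 114 in the knockouts. In the controls NEAT1 had 1944 and 1622 reads against 377 and 260. The FPKM of NEAT1 was scaled to 22743 nt, its longest transcript, so its place in this order depends on that length. SNHG5, SNHG7 and SNHG8 were within each other's spread, and the places of SNHG1 and SNHG6 changed from library to library.

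The annotation places 17 snoRNA entries, 69 to 136 nt long, inside 6 of the host genes on the same strand (GENCODE 29, hg38). The snoRNAs of GAS5 were not analysed here. All 17 were listed at 0 in every library, among them SNORD22, SNORD25 and SNORD26 of SNHG1. Of all 943 snoRNA entries, 7.53% were above 0 in some library. Of the 17, 16 overlap an annotated exon of their host. The libraries were made from polyA RNA, and how reads shared by a host and a snoRNA were counted is not stated, so the zeros are no measure of the snoRNAs in the cells.

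The longest annotated transcript sets the length behind each FPKM, and for GAS5 (1698 nt) and SNHG1 (2768 nt) it is annotated with retained introns. Which forms the reads came from was not tested. Genes on the other strand share exon bases with some hosts, and the strand setting of the counting is not given in the sources used here, so reads of such pairs cannot be told apart. SNHG16 shares 1639 exon bases with the antisense entry AC015802.6, named after its values were seen, which had 6.10 and 8.56 FPKM in the knockouts and 0.327 and 0.473 FPKM in the controls, the opposite direction to SNHG16. SNHG7 shares 1094 bases with FAM69B, which had 0 and 0.669 FPKM in the knockouts and 0 and 5.10 FPKM in the controls. SNHG6 shares 365 bases with MCMDC2, listed at 0 in all 4 libraries.

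The letters GGACT, a preferred sequence of the m6A mark that IGF2BP proteins read, were counted on the sense strand of the longest transcripts. SNHG8 had 4.46 per kb (3 copies), SNHG7 2.12 per kb (5 copies), MALAT1 1.49 per kb (13 copies) and SNHG16 1.39 per kb (5 copies). SNHG1 had 1.08 per kb (3 copies), SNHG5 0.969 per kb (1 copy) and GAS5 0.589 per kb (1 copy). NEAT1 had 19 copies in its far longer transcript, or 0.835 per kb, and SNHG6 had 0. The median over 11440 tested genes was 0.896 per kb, and 87.6% held at least 1 copy. SNHG7 also stood out in base composition, with 65.9% G and C against 40.3 to 49.3% in the other 8 and a median of 48.4% over tested genes. No m6A measurement was analysed here.

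Other lncRNA hosts of snoRNAs were examined in the same way. Of 20 listed genes 15 were above 0 in some library and 12 were tested. None passed the threshold in limma or in limma-voom, and 2 had an unadjusted p under 0.05, against 3.91% of all tested genes. The fitted value was negative for 7 and positive for 5, with a median of -0.85. That median was 0.20 without knockout 1, -2.67 without knockout 2, -0.08 without control 1 and 0.39 without control 2. Knockout 1 was the lowest library, alone or tied at 0, for 9 of the 12.

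SNHG17 had 2.88 and 40.7 FPKM in the knockouts and 89.1 and 70.5 FPKM in the controls, a fitted value of -2.76 ± 1.16 (SE, 2 libraries per group; limma adjusted p = 0.955) that was -0.95 without knockout 1. SNHG29, listed as LRRC75A-AS1, had 77.8 and 164 FPKM in the knockouts and 27.3 and 94.9 FPKM in the controls. SNHG32, listed as C6orf48, had 80.7 and 52.1 FPKM in the knockouts and 1.32 and 60.4 FPKM in the controls. Of these only SNHG17 had groups that did not overlap. SNHG3 had 2.83 and 28.1 FPKM in the knockouts and 9.55 and 50.9 FPKM in the controls.

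The proteins that work with these RNAs gave no call in limma or limma-voom either. Of 16 paraspeckle proteins 11 had a positive fitted value, with a median of 0.36, and 1 had an unadjusted p under 0.05. The median was 0.09 without knockout 1, 0.005 without control 1 and 0.61 without control 2. NONO, which binds NEAT1, had 244 and 201 FPKM in the knockouts and 202 and 211 FPKM in the controls, and SFPQ, its partner, had 166 and 175 FPKM in the knockouts and 77.4 and 215 FPKM in the controls. Both overlapped between the genotypes. Of the 16, 6 had groups that did not overlap and were higher in the knockouts, against 12.1% of tested genes. Lower without overlap were 2, against 14.4% of tested genes. Of 12 nuclear speckle proteins 8 had a negative value, with a median of -0.13 (between -0.46 without control 1 and -0.05 without control 2) and 1 unadjusted p under 0.05, and the scaffold protein SRRM2 had 104 and 159 FPKM in the knockouts and 132 and 158 FPKM in the controls.

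Of 15 snoRNP proteins, which assemble with snoRNAs, 10 had a positive value, with a median of 0.48, which was 0.08 without control 1 and 0.95 without knockout 2. FBL, the methyltransferase of box C/D particles, had 364 and 505 FPKM in the knockouts and 338 and 444 FPKM in the controls. NOP56, a core protein of the same particles and itself a host of snoRNAs, had 37.6 and 74.9 FPKM in the knockouts and 260.3 and 202 FPKM in the controls. Both NOP56 knockout values were below both control values, and its fitted value of -2.10 ± 0.71 had the only unadjusted p under 0.05 of that list, 0.0031 (SE, 2 libraries per group; limma adjusted p = 0.660).

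Of 16 factors of nonsense-mediated decay 12 had a negative value, with a median of -1.27, and 1 had an unadjusted p under 0.05. Knockout 1 was the lowest library for 12 of them, and the median was -0.02 without it and -2.02 without knockout 2. UPF1, the helicase of that pathway, had 25.3 and 76.0 FPKM in the knockouts and 85.8 and 45.7 FPKM in the controls. Knockout 1 was the lowest UPF1 value and knockout 2 lay between the controls.

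Of 14 regulators of TOP mRNAs 8 had a positive value, with a median of 0.11, and none had an unadjusted p under 0.05. The median was 0.60 without knockout 1 and turned to -0.10 without knockout 2, -0.03 without control 1 and -0.09 without control 2. LARP1, which binds TOP tracts, had 32.5 and 131 FPKM in the knockouts and 173 and 145 FPKM in the controls. Its fitted value was -1.27, or -0.27 without knockout 1. Of 13 tested genes for 3′ processing and decay of lncRNAs 8 had a negative value, with a median of -0.53, and none had an unadjusted p under 0.05. The median was -0.33 without knockout 1, -0.94 without knockout 2 and -1.41 without control 1, and it turned to 0.33 without control 2. ELAC2, the RNase Z of that list, had 7.91 and 68.4 FPKM in the knockouts and 88.8 and 83.2 FPKM in the controls, with both knockouts below both controls.

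**Figure D4:**
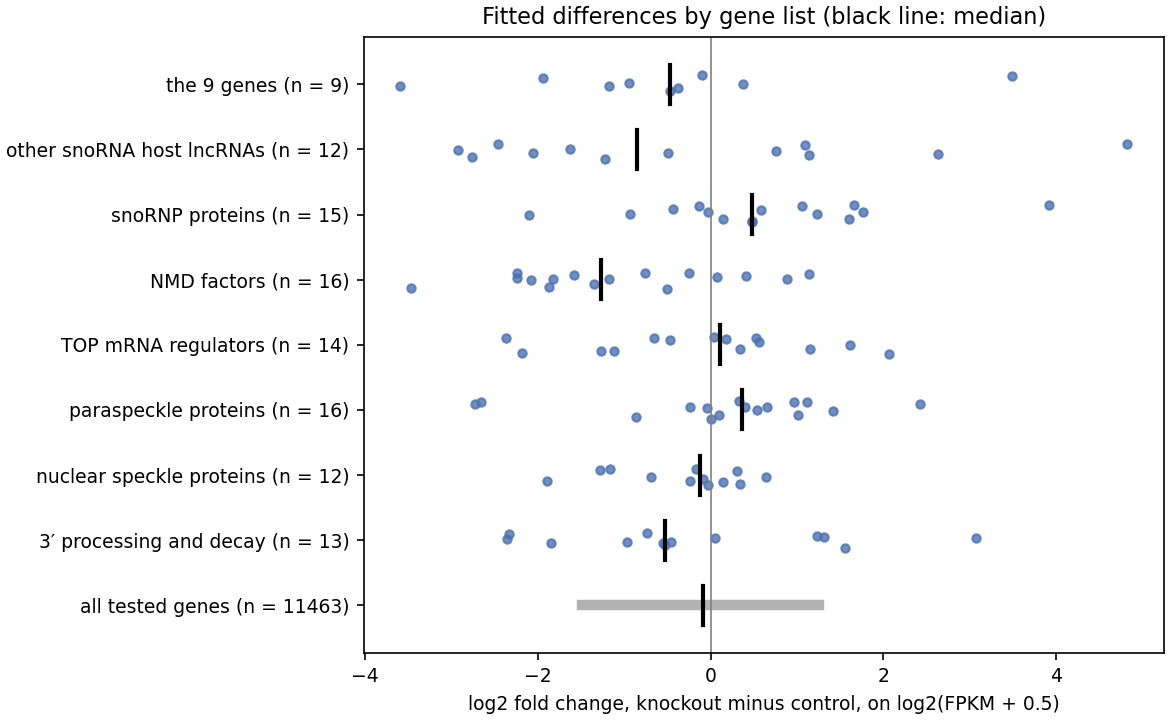
Fitted log2 fold change (knockout minus control, on log2(FPKM + 0.5)) of every tested gene in each of the lists shown, with a black line for the median of the list and, in the bottom row, a grey bar for the middle 50% of all tested genes. NMD is nonsense-mediated decay. The medians of the lists run between -1.27 for the factors of nonsense-mediated decay and 0.48 for the snoRNP proteins, and the genes of each list shown lie on both sides of 0.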

How the data were processed

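PolyA RNA of 2 IGF2BP3 knockout and 2 control T24 libraries was measured, grouped by the genotype in the labels. The authors deposited FPKM per gene for each library. The submitters' processing notes name hg38 as the genome build. Aligner, annotation release and strand setting were not given in the sources used here. Of 58302 genes, 58039 matched GENCODE 29, which gave names, lengths and positions. FPKM multiplied by the longest transcript gave whole multiples of 1 read within a tolerance of 0.0001 for 96.4 to 96.5% of values above 0. The reads so recovered gave depth and 95% intervals (exact Poisson for a level, exact binomial for a ratio), which cover counting error only.

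Genotypes were compared with limma 3.58.1 under R 4.3.3 (lmFit, eBayes with trend) on log2(FPKM + 0.5) for the 11463 genes with a mean of at least 1 FPKM, knockout minus control, two-sided, Benjamini-Hochberg adjusted over all tested genes, threshold 0.05. The SEs of this fit came from genes of like level and gave a gene's own replicates no weight. The fit was also run on simulated reads whose spread was not matched to these libraries, so that run does not show how the fit performs here. Alternatives were other pseudocounts, filters, scalings, thresholds and variance models, a replicate block, each library left out, and limma-voom on recovered reads (11043 genes).

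All 9 genes are named. Of each other list, those named come from its 4 highest in mean FPKM, except markers listed at 0 and genes said to be named after their values were seen. Likeness took the 3 tested genes of at least 10 FPKM with the smallest root mean square difference of centred log2 values. Members and lists were chosen with earlier results of these data known. Figures used matplotlib 3.10.9.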

Additional observations from a re-analysis of the deposited data

How the results depend on the processing

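Over all tested genes 10 passed the threshold. The count was 0 when genes had to be above 0 in all 4 libraries (237 at an unadjusted p under 0.05), 0 without the trend in limma (415) and 0 with any 1 library left out (752 to 1025), and it was 18 at a threshold of 0.1. The other alternatives gave 7 to 14. Of the 10 genes, limma-voom kept 1, and the rest of these alternatives kept 7 to 10. Of the 9 lncRNA genes 0 passed, under each alternative except limma-voom, where 1 did (MALAT1, 0.22). Of the 112 tested genes of the other lists, markers and the IGF2BP family not counted, 0 passed. With a pseudocount of 0.1, with TPM scaling, with the replicate block and with limma-voom 1 passed, each time RN7SL2 (19393 and 20206 FPKM in knockouts, 27246 and 28397 in controls). RN7SL2 was listed as an abundant RNA without a polyA tail, and how it entered the polyA libraries was not tested. Of the 4 tested urothelial and epithelial markers 0 passed in limma and 1 in limma-voom. KRT8 had a limma adjusted p of 0.0896, under the threshold of 0.1. The sign of SNHG5 reversed, to 1.35 without control 2 and 0.62 without knockout 1, with a lowest value of -2.10 without control 1. Of 152 values of the 9 genes under alternatives, 149 kept direction and side of the threshold. SNHG6 gave no value when genes had to be above 0 in all libraries. The median of all genes moved by 0.12 under limma-voom, and by -0.48 without knockout 2, -0.27 without control 1, 0.24 without knockout 1 and 0.42 without control 2. The cause of these shifts was not tested.

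With the replicate block 14 genes and 0 of the 9 passed. What the replicate numbers stand for is not stated. Deviations of same-numbered libraries correlated at -0.004 over 2 pairs. Yet genes above 0 were fewer in knockout 1 and control 1 (7827 and 8856) than in knockout 2 and control 2 (11127 and 11433). The Pearson correlation was 0.43 between the knockouts, 0.49 between the controls and 0.42 to 0.49 across genotypes. The cause of these patterns was not tested. At these depths host genes with few reads allow no firm statement, and 1 read of SNHG6 was worth 1.90 FPKM in knockout 1.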

Other observations

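A pair of host lncRNA genes outside the 9, singled out after their values were seen, had groups that did not overlap, as did 26.5% of all tested genes. SNHG15 had 0.395 and 0.776 FPKM in the knockouts (1 and 3 reads) and 8.91 and 6.52 FPKM in the controls. SNHG4 had 27.1 and 15.8 FPKM in the knockouts, and was listed at 0 and 0.618 FPKM in the controls. Neither passed the threshold in limma.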
